A study of Arabidopsis thaliana with 3 samples.

Results

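KIN1, COR15A, ZAT10, CML37 and the AP2/ERF locus AT4G28140 are 5 genes chosen by name, with earlier results of these data known, among 16505 genes measured under a name. KIN1 and COR15A stand for the response to cold and abscisic acid, ZAT10 and CML37 for wounding and general stress, and AT4G28140 is a transcription factor locus without a symbol in the RefSeq table used here. RNA came from vascular strands of Arabidopsis thaliana cotyledons, the first leaves of the seedling, and was hybridised to Affymetrix Arabidopsis Gene 1.0 ST arrays. The control array holds wild type on plain Murashige-Skoog medium, the CEP1 array wild type on the same medium with 1 µM CEP1 peptide from sowing on, and the last array the mutant cepr1-1 on plain medium, all grown for 8 days in continuous light. CEP1 is a root-derived peptide of the nitrogen demand pathway, and CEPR1 is its receptor in the shoot.

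Each group is 1 array of RNA pooled from 200 cotyledons, so there are no replicates, no SD and no test, and every difference below has no replicate check. The labels give neither the accession of the wild type and of cepr1-1 nor the nature of the lesion. Before collection by hand, cotyledons of all 3 groups were digested with cell wall enzymes and sonicated. No undigested sample was analysed here, so the level of a wound gene that was already reached through this handling cannot be told apart from its level in the intact leaf. In such bulk RNA, fewer cells of a type and less RNA per cell cannot be told apart either.

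In Arabidopsis, cold induces the CBF factors, which bind a drought and cold element in the promoters of many COR and KIN genes, while abscisic acid reaches an overlapping set of genes through bZIP factors. The products of these genes are mostly small hydrophilic proteins thought to protect membranes and proteins when cells lose water. Wounding, touch and many other stresses raise calcium in the cell within moments and induce calcium sensors and short-lived transcriptional repressors. Digestion and dissection of tissue are known to induce genes of the second kind.

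The values are log2 probe set values as the authors deposited them, and each of the 5 genes has 1 probe set with 1 gene name. A difference is the value on one array minus that on another, and it is also given as a fold where both arrays lie at or above their medians. The median over all measured genes was 3.07 on the control array, 3.07 on the CEP1 array and 3.11 on the cepr1-1 array. The brighter array of a pair has to reach its median for a gene to count as above the floor in that comparison. The comparisons of CEP1 and of cepr1-1 with the control share the control array, so their 2 sets of differences are not independent and are given side by side. Another comparison, CEP1 against cepr1-1, leaves that array out but shares each of its arrays with one of the others. For each gene it equals the difference with CEP1 minus the difference in cepr1-1, so it is no separate evidence.

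AT4G28140 had the widest span of the 5 genes. Its value was 5.98 in the control, 6.74 with CEP1 and 5.19 in cepr1-1. It was thus highest with CEP1 and lowest in the receptor mutant, with the control close to the middle between them. The difference was 0.76 with CEP1, 1.70-fold higher, and -0.79 in cepr1-1, 1.73-fold lower. Between CEP1 and cepr1-1 it was 1.55, or 2.94-fold. The 3 values lie well above the medians of their arrays.

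ZAT10 encodes a zinc finger transcriptional repressor that is induced by salt, cold and wounding, and the array lists it under its other symbol STZ (AT1G27730). Its value was 9.00 in the control, 9.38 with CEP1 and 8.52 in cepr1-1. The order of the arrays was the same as for AT4G28140, with smaller steps: 0.38 with CEP1, 1.30-fold higher, and -0.48 in cepr1-1, 1.39-fold lower. Neither step reached 1.5-fold, while the difference between CEP1 and cepr1-1, which spans both steps, did, at 0.85 or 1.81-fold.

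COR15A (AT2G42540) encodes a chloroplast protein that protects membranes during freezing. It was 6.71 in the control, 7.10 with CEP1 and 6.55 in cepr1-1. The order of the arrays was the same again. The difference was 0.38 with CEP1, 1.30-fold higher, and -0.16 in cepr1-1, 1.12-fold lower. In cepr1-1, 14.1% of genes above the floor were as low or lower. The share of all measured genes with this order was not counted, and array noise was not measured. The order is therefore given as a description, and no shared pattern is read from it, here or for other genes. The difference between CEP1 and cepr1-1 was 0.54, or 1.46-fold, and none of the 3 differences reached 1.5-fold.

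CML37 (AT5G42380) encodes a calmodulin-like calcium sensor induced by wounding and insect feeding. It was 5.69 in the control, 5.67 with CEP1 and 5.18 in cepr1-1. The control and CEP1 arrays differed by -0.02, so the order of these neighbours cannot be read, and only the mutant array lay apart. There the difference from the control was -0.50, 1.42-fold lower, and CEP1 exceeded cepr1-1 by 0.48, or 1.40-fold.

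KIN1 (AT5G15960), which encodes a small alanine-rich protein induced by cold and abscisic acid, was the one member at least 1.5-fold lower with CEP1 on the values as deposited. It was 3.80 in the control, 2.91 with CEP1 and 2.48 in cepr1-1. The control was the highest of its 3 arrays, unlike for AT4G28140, ZAT10 and COR15A. The difference was -0.89 with CEP1 and -1.32 in cepr1-1. On the CEP1 and cepr1-1 arrays KIN1 lay below the array median, where signal above background is not shown, so the sizes are not exact and only the 1.5-fold rule is applied to them. With a pseudocount of 16 on the linear scale they were -0.35 and -0.47, and neither reached 1.5-fold. The 0.43 between those 2 dim values is not above the floor and its order cannot be read.

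**Figure D1:**
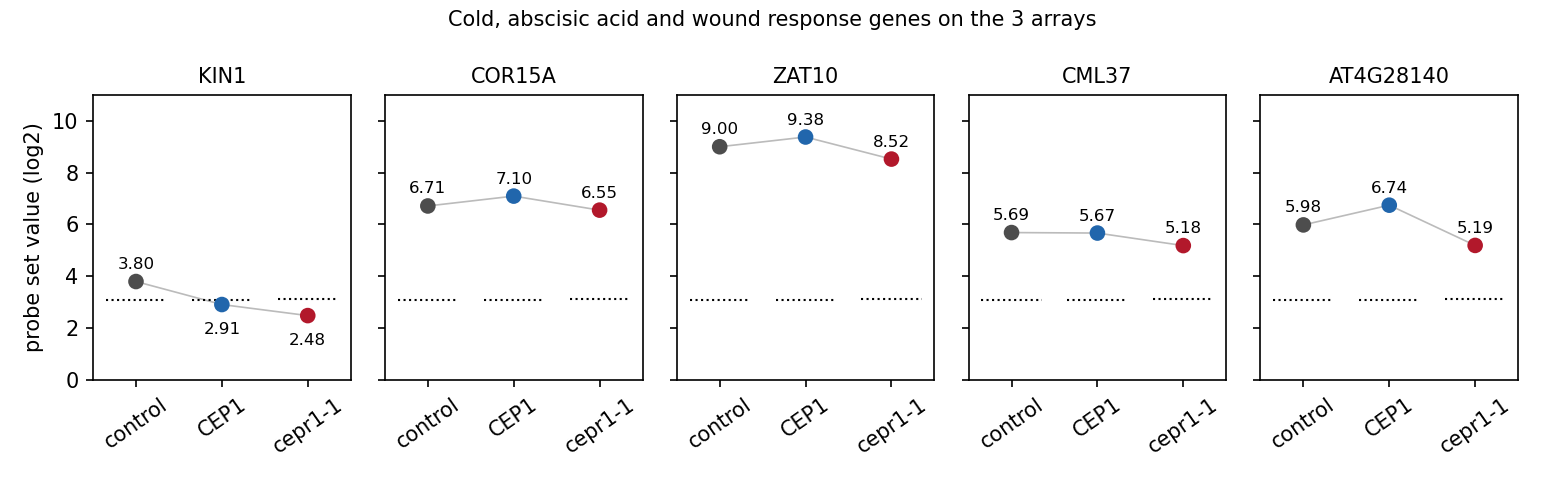
Log2 probe set values (vertical axis) of the 5 genes on the control, CEP1 and cepr1-1 arrays, 1 point per array, with each array's median over measured genes as a dotted line; levels of different genes are not comparable. AT4G28140, ZAT10 and COR15A were highest with CEP1 and lowest in cepr1-1, CML37 was lower in cepr1-1 alone, and KIN1 was at 3.80 in the control and under the median on the other arrays.

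Counted by size, 1 of the 5 genes was at least 1.5-fold higher with CEP1 (AT4G28140) and 1 at least 1.5-fold lower (KIN1). Over all genes above the floor the shares were 1.57% higher and 1.07% lower. In cepr1-1, 2 of the 5 were at least 1.5-fold lower (KIN1 and AT4G28140) and 0 higher, with a background of 2.14% lower and 1.28% higher. KIN1 passes the floor through the control array alone, and both its calls end with the pseudocount. Between CEP1 and cepr1-1, 2 were at least 1.5-fold higher (AT4G28140 and ZAT10) and 0 lower, with a background of 3.74% higher and 1.95% lower. The median of the 5 differences was 0.38 with CEP1, -0.50 in cepr1-1 and 0.54 between CEP1 and cepr1-1, while the median over all measured genes was 0 in each comparison. That 0 is no reference for the members, since 54.6% of measured genes have equal values on all 3 arrays. The 5 genes were picked with these values known, so the shares describe where they lie and nothing is read from the counts.

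Against single genes, the differences of the members above their medians were spread from the tails to the bulk. With CEP1, AT4G28140 had rank 64 from the highest of 8596 genes above the floor, COR15A rank 288 and ZAT10 rank 292. CML37, at -0.02, had rank 1166 from the lowest there. In cepr1-1, ranks from the lowest of 8644 genes were 99 for AT4G28140, 277 for CML37, 305 for ZAT10 and 1219 for COR15A. Between CEP1 and cepr1-1, ranks from the highest of 8630 genes were 42 for AT4G28140, 162 for ZAT10, 375 for COR15A and 438 for CML37. KIN1 is given no rank, since it passes the floor through the control array alone. COR15A, with 14.1% of genes as low or lower in cepr1-1, was the member nearest to the bulk in the mutant.

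**Figure D2:**
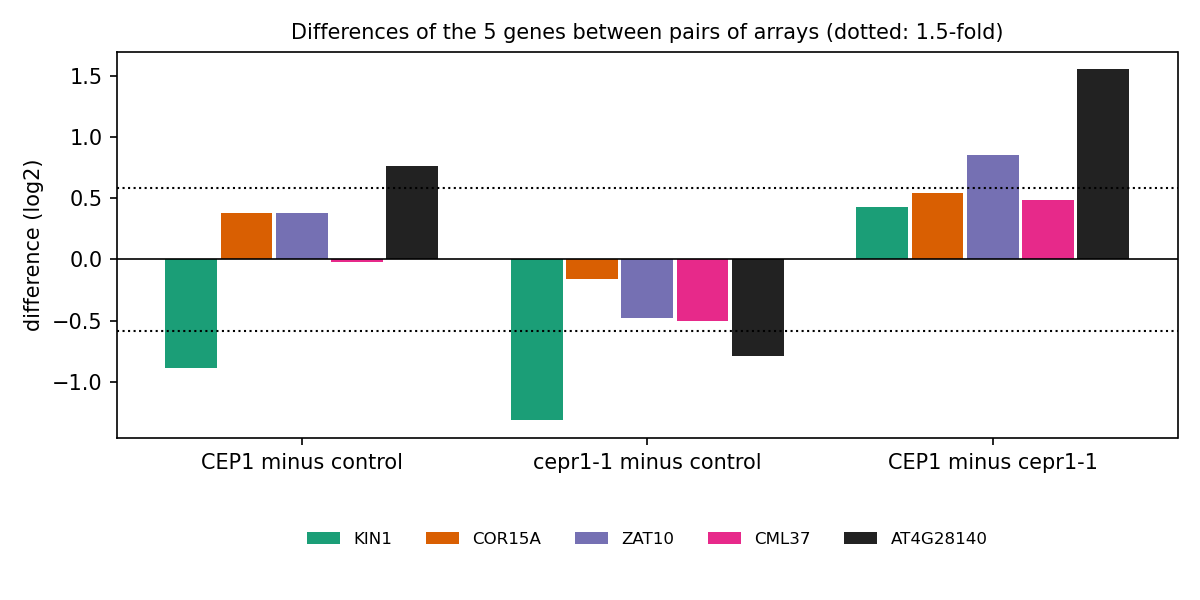
Differences on the log2 scale (vertical axis) of the 5 genes for CEP1 minus control, cepr1-1 minus control and CEP1 minus cepr1-1, 1 bar per gene and pair of arrays, with 1.5-fold as dotted lines and no error bars because each group is 1 array. KIN1 points down in both comparisons with the control, and AT4G28140 up with CEP1 and down in cepr1-1.

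**Figure D3:**
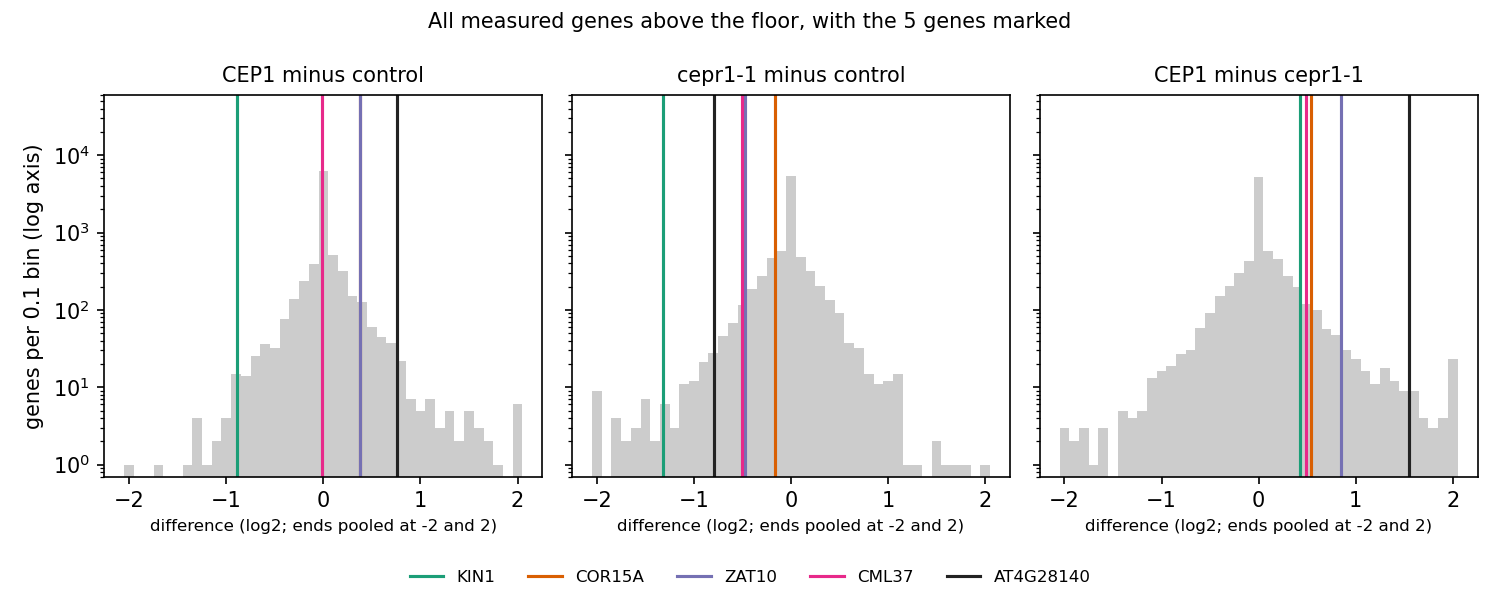
Number of measured genes above the floor per bin of 0.1 (vertical log axis) by their log2 difference (horizontal axis, ends pooled at -2 and 2) in the 3 comparisons, with the 5 genes as coloured lines; KIN1 in the right panel is below the floor, and the line of ZAT10 covers that of COR15A at 0.38 in the left panel. Most genes lie at or near 0, AT4G28140 at 0.76, -0.79 and 1.55, and CML37 at -0.02 with CEP1.

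For scale within the same arrays, 2 of the 4 measured CEPD and CEPD-like glutaredoxins differed by more than any of the 5 genes and 2 by less than AT4G28140. CEPD1 (AT1G06830), a glutaredoxin that carries the nitrogen demand signal from shoot to root, was 5.61 higher with CEP1 than in cepr1-1 on the log2 scale. The same difference was 4.01 for CEPD2 (AT2G47880), whose cepr1-1 value of 1.78 lies below the array median. The CEPD-like loci AT2G47870 and AT3G62960 had differences of 0.76 and 0.02, beside 1.55 for AT4G28140 and 0.85 for ZAT10. AT3G62960 was 2.12 in the control, 2.12 with CEP1 and 2.09 in cepr1-1, below each array's median, so its small difference cannot be read.

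KIN1 lies next to its copy KIN2 (AT5G15970), and COR15A next to COR15B (AT2G42530). KIN2, also known as COR6.6, was 9.03 in the control, 9.33 with CEP1 and 9.20 in cepr1-1. It differed from the control by 0.30 and 0.17 and lay above the median on all 3 arrays. COR15B was 2.84 in the control, 2.84 with CEP1 and 3.48 in cepr1-1, a difference of 0.64 in the mutant, where that of COR15A was -0.16. COR15B reached the array median in cepr1-1 alone and KIN1 in the control alone, so whether the copies of a pair differ from each other cannot be read from these values. Signal shared between probe sets of the copies was not tested.

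Of 41 cold and abscisic acid effector genes listed for this comparison, 8 are measured under a name. With CEP1, 0 of the 8 were at least 1.5-fold higher and 1 (KIN1) was lower, with 6 above the floor and a background of 1.57% higher and 1.07% lower. In cepr1-1, 1 was higher (COR15B) and 1 lower (KIN1), with 7 above the floor and a background of 1.28% higher and 2.14% lower. Both genes reach the median on 1 array alone. The median difference was 0.05 with CEP1, where 3 of the 8 were equal to the control, and 0.00 in cepr1-1, where 1 was. The 0 over all measured genes is no reference here either. COR47, a dehydrin that rises in cold, was 7.41, 7.51 and 7.41 in the control, CEP1 and cepr1-1 arrays. The dehydrin gene LTI30 was equal on all 3 arrays at 2.92, below the median. The locus AT1G54410 differed by 0 and -0.04, and AT4G30650 by 0.27 in both comparisons.

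A wider set was gathered by RefSeq name (cold-regulated, dehydrin, LEA, drought-induced and RD genes) after the values had been seen, and holds 17 measured genes, 7 of them in common with the list above. With CEP1, where 11 were above the floor, 1 (KIN1) was at least 1.5-fold lower and 0 higher (background 1.07% and 1.57%). In cepr1-1, where 12 were above the floor, 3 were higher and 1 (KIN1) lower (background 1.28% and 2.14%). KIN1 passes the floor through the control array alone in both comparisons, and COR15B in cepr1-1 through the mutant array alone. LEA18, at 3.20 in the control, lies just over that array's median of 3.07. The set was gathered with the values known, so nothing is read from its counts. The higher genes in the mutant were COR27, a cold-induced gene that also acts on the clock, with 5.75 in the control, 6.06 with CEP1 and 6.49 in cepr1-1, then LEA18 with 3.20, 3.20 and 3.90, and COR15B. RD2 was 7.62 in the control, 8.20 with CEP1 and 7.28 in cepr1-1, which is the order seen for AT4G28140, ZAT10 and COR15A. Its difference of 0.58 with CEP1 lies just under 1.5-fold, and that between CEP1 and cepr1-1 was 0.92. DI19, a drought-induced zinc finger gene, differed by -0.05 and 0.12. The median of the 17 was 0 in each comparison, and 5 had the same value on all 3 arrays.

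Calcium sensor genes of the CML37 kind showed one close parallel. CML38 (AT1G76650), a wound- and hypoxia-induced relative of CML37, was 6.72 in the control, 6.71 with CEP1 and 6.23 in cepr1-1. Its difference from the control in cepr1-1 was -0.49, beside -0.50 for CML37, and with CEP1 it was 0.00. Signal shared between the probe sets of both genes was not tested. The locus AT2G41090, from the same list, had the widest span, at 4.89 in the control, 5.37 with CEP1 and 3.99 in cepr1-1. It was 0.48 higher with CEP1 and -0.89 from the control in cepr1-1, a gap of 1.38 between the 2 arrays, or 2.60-fold.

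Of 15 calmodulin-like and touch genes listed, 8 were measured and 4 were above the floor. With CEP1, 0 were at least 1.5-fold higher or lower, where 1.57% and 1.07% of all genes were. In cepr1-1, 0 were higher and 1 was lower, AT2G41090, against 1.28% and 2.14% of all genes. Counts over so few genes show nothing particular to the list. The median was 0 in both, where 4 of the 8 with CEP1 and 5 in cepr1-1 were equal to the control. The locus AT1G76640, CML42, CML43 and CML23 were equal on all 3 arrays, and of these CML42, at 3.22, was above the median. CML41 was below the median on all 3 arrays, at 1.40, 1.59 and 1.40.

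**Figure D4:**
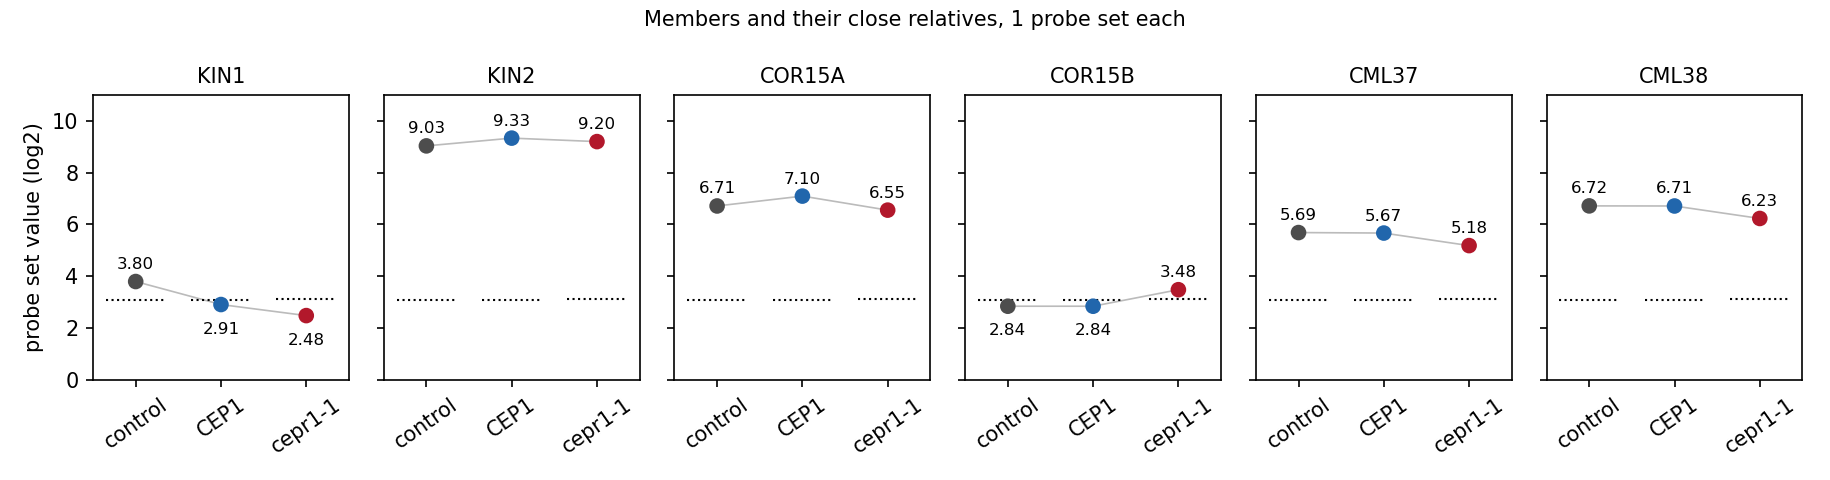
Log2 probe set values (vertical axis) of KIN1, COR15A and CML37 beside a close relative of each on the control, CEP1 and cepr1-1 arrays, 1 point per array, with array medians dotted; levels of different genes are not comparable. KIN1 is above its array's median in the control alone and COR15B in cepr1-1 alone, while CML38 and CML37 were both lower in cepr1-1 by about the same step, -0.49 and -0.50.

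Of 11 zinc finger repressors listed, 5 were measured and 2 were above the floor, ZAT10 and AT3G46080. On either array 0 were 1.5-fold different from the control. Over all genes the shares were 1.57% higher and 1.07% lower with CEP1, and 1.28% higher and 2.14% lower in cepr1-1. A count of 0 among so few genes shows nothing particular to the list. ZAT7 and the loci AT2G28200 and AT3G53600 were equal on all 3 arrays and below the medians. AT3G46080 was 4.74 in the control, 4.56 with CEP1 and 4.39 in cepr1-1, so it was lower than the control on both other arrays, unlike ZAT10. Between CEP1 and cepr1-1, 1 of the 5 was at least 1.5-fold higher (ZAT10), beside 3.74% of all genes.

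AT4G28140 was the only one of the 7 measured AP2/ERF loci of its list, which names 10, that differed at all between the arrays. The other 6 were equal on all 3 arrays, and so were 54.6% of all measured genes. Of these 6, AT4G39780 at 5.83 and AT1G64380 at 4.58 lie above the medians, and AT1G36060, AT2G22200, AT5G65130 and AT4G13620 below. How the deposited values came to be equal across arrays is not stated in the labels or the file, and equal values are no evidence that expression was the same.

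Other wound and stress genes gave few values. Of 27 wound and jasmonate genes, 3 were measured: ZAT10, CML37 and the defensin gene PDF1.2, which was below the median on all 3 arrays at 0.72, 1.02 and 1.02. Of 21 rapidly induced stress factors and kinases, WRKY6 was the one measured, at 5.54, 5.41 and 5.54 in the control, CEP1 and cepr1-1 arrays. Among the 7 WRKY genes found by RefSeq name after the values had been seen, 0 were 1.5-fold different in any comparison. The shares of all genes lay between 1.07% and 3.74% per comparison and direction, so this 0 shows nothing particular to the set. Of the 7, 3 were equal on all 3 arrays, among them WRKY29 at 4.91 and WRKY47 at 4.27, both above the medians. WRKY41 was below the medians on all 3 arrays. WRKY20 was 6.57, 6.36 and 6.16, and WRKY22, known from defence signalling, was 5.16, 4.86 and 4.95. Unlike ZAT10, both were lower than the control with CEP1 as well.

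The 2 oxidative stress genes measured of 14, AT2G21640 at 4.80 and GSTU25 at 0.79, were equal on all 3 arrays. So were the 2 heat shock genes measured of 10, AT1G53540 at 2.02 and ATHSP22.0 at 1.25, both below the medians. The lists of cold signalling regulators, of abscisic acid synthesis and turnover, and of abscisic acid perception and signalling have no member measured under a name, so CBF factors, abscisic acid enzymes and receptors were not analysed here.

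Markers of other leaf cells differed between the arrays too. Of 15 mesophyll markers 3 were measured, and the log2 of their summed level was 9.91 in the control, 9.80 with CEP1 and 10.2 in cepr1-1. SBPASE, an enzyme of carbon fixation, was 7.55, 7.45 and 8.25, and the Rubisco activase gene RCA was 9.49, 9.37 and 9.70. PRK, also of carbon fixation and above the median on all 3 arrays, was 5.74, 5.74 and 5.71 and so differed by -0.03 in cepr1-1. Of 12 epidermis and guard cell markers 4 were measured, with a log2 summed level of 9.58, 8.92 and 9.20. Of these, AT1G22690 was 9.49, 8.81 and 9.08 and the guard cell factor gene FMA 5.37, 4.86 and 5.37, while SPCH and MUTE lay below the medians. Each sum is carried mostly by its brightest gene, RCA for mesophyll and AT1G22690 for epidermis and guard cell. The part of these cell types in the differences of the 5 genes was not tested. For the labelled vascular tissue, 2 of 10 phloem markers were measured, of which SWEET11 was 11.5 on each array and OPS 2.91, below the median. None of the 10 xylem and procambium markers was measured under a name.

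By their pair of differences from the control over the 3 arrays, the 5 genes had different company among 8547 genes that were above the floor with CEP1 and in cepr1-1. The distance used is the Euclidean one on the log2 scale. AT4G28140 had 2 genes within 0.1, AT2G38740 at 0.03 and the shaggy-related kinase gene ATSK12 at 0.08, followed by AT5G64120 at 0.10. AT2G38740 was 5.25 in the control, 6.02 with CEP1 and 4.42 in cepr1-1. ATSK12 was 7.50, 8.20 and 6.75 in the same order.

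ZAT10 had 20 genes within 0.1, the nearest being AT2G37520, AT5G49580 and AT4G17650. COR15A had 30, led by AT3G52470, AT1G56120 and the vacuolar protease gene GAMMA-VPE. CML37 had 102, led by AT1G38131, AT3G45620 and TEX1, a gene for a subunit of an mRNA export complex. KIN1 entered the 8547 genes through the control array alone, and its differences are not exact enough to name the genes most like it. A pattern near 0 has more genes around it than one in the tails, so these counts are not a measure of shared control.

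On the chromosome, the nearest measured genes on each side were looked up after the values had been seen. For CML37 (AT5G42370 and SPP) and AT4G28140 (AT4G28100 and AT4G28150) both were equal on all 3 arrays. For ZAT10, AT1G27710 was -0.03 on both arrays against the control and AT1G27750 was equal. AT5G15950, on the other side of KIN1 from KIN2, was 7.35 in the control, 7.76 with CEP1 and 7.00 in cepr1-1, a difference of 0.41 with CEP1 and -0.35 in cepr1-1.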

How the data were processed

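The authors deposited 1 log2 value per probe set and array, with the log scale read from their range since the file header names no unit. Per the submitters' processing notes they were made with Affymetrix Expression Console 1.3; their background correction, normalization and probe summary were not stated. Of 38408 probe sets, the platform annotation lists 17481 and gives 1 gene for 16722, several for 759 (not used). RefSeq names (TAIR10.1) matched 16574 by gene ID and 96 by locus, and 52 did not match. The brightest probe set per locus was kept, which left 16505 genes. No coordinates are printed because the array's build is not given.

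The 5 genes and all lists were chosen with earlier results of these data known. Of 260 loci on 16 lists, 47 were measured, and 4 lists had none. Named genes are the members, measured members of lists holding them (by value if 1.5-fold apart or if the list has up to 6), other list members 1.5-fold apart or brightest, CEPD1, CEPD2 and the 3 genes nearest to each member (not named for KIN1, which is dim on 2 arrays). RefSeq-name sets, chromosome neighbours and values beyond this rule, such as those of DI19, WRKY20 and WRKY22, were chosen after the values were seen. With 1 array per group nothing was tested; the number of arrays limits the precision. The counting was tested on simulated data. Alternatives were 3 scalings, a pseudocount, other floors, the mean over probe sets and 2-fold. Python 3.11.15, pandas 2.3.3 and statsmodels 0.14.6 were used. The promoter comparison was not run and no sequence is printed, since no sequence table was used here.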

Additional observations from a re-analysis of the deposited data

How the results depend on the processing

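Each of the 15 differences of the 5 genes was recomputed in 5 ways. None changed sign, though a pseudocount cannot change one. Trend removal moved none by over 0.1 on the log2 scale, and the largest change was 0.03. It left the difference with CEP1 unchanged for each of the 5 genes. Since 54.6% of measured genes have equal values on all arrays, there was little trend to remove, and no robustness is read from this. Equal medians moved none by over 0.1 either, but they could not, since they shift all genes alike by at most 0.035. The mean over probe sets could move none, since each of the 5 genes has 1 probe set. Quantile normalization moved 1, KIN1 between CEP1 and cepr1-1, from 0.43 to 0.53. A pseudocount of 16 on the linear scale, which damps dim genes by construction, moved 8 and ended 2 calls of 1.5-fold, both of KIN1, at -0.35 with CEP1, -0.47 in cepr1-1 and 0.12 between CEP1 and cepr1-1. It left CML37 at -0.37 in cepr1-1 and 0.35 between CEP1 and cepr1-1. AT4G28140 stayed past 1.5-fold under it, at 0.64 with CEP1, -0.59 in cepr1-1 and 1.23 between CEP1 and cepr1-1.

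Over all genes, the pseudocount left 51 higher and 28 lower with CEP1 (135 and 92 as deposited), 22 higher and 81 lower in cepr1-1 (111 and 185), and 163 higher and 49 lower between CEP1 and cepr1-1 (323 and 168). Without the floor, 260 were higher in cepr1-1 and 367 lower between CEP1 and cepr1-1; with both arrays at their medians, 68 were higher in cepr1-1. At 2-fold, KIN1 was the 1 gene of the cold and abscisic acid list, and of the RefSeq cold set, left in cepr1-1. It lies below the median there and its size is not exact, so this is not read as a 2-fold call. In the other 2 comparisons 0 genes of these sets were left. The zinc finger, wound, mesophyll and epidermis lists, and the calmodulin-like list in cepr1-1, had 0 at 2-fold, as had the AP2/ERF list against the control. The share of all genes at 2-fold was not counted, so nothing is read from the 2-fold counts of any list. No paired analysis was possible because each group has 1 array. KIN1 rests on dim signal, and array noise was not measured.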
